A study of Homo sapiens with 6 samples.

Results

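MALAT1, NEAT1 and 8 noncoding host genes of small nucleolar RNAs (GAS5, SNHG1, SNHG5, SNHG6, SNHG8, SNHG12, SNHG16 and SNHG29) were followed in UMUC3 cells, a human bladder cancer line. The 10 genes were taken by name from a table of raw read counts with 23382 gene names, and each stood on 1 row. RNA sequencing covered 6 libraries of this line, 3 labelled Negative control and 3 labelled si-CPSF3. The series describes the latter as CPSF3 downregulation, and CPSF3 is the endonuclease that cuts pre-mRNA ahead of polyadenylation. The labels give neither the reagent's sequence and dose nor a time, and do not say whether replicates 1 to 3 were separate cultures, so a p-value reflects only how these libraries vary, possibly for technical reasons. After each gene name had been reduced to 1 row, a library held 4145385 to 4378899 counts.

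MALAT1 and NEAT1 are long RNAs that stay in the nucleus. MALAT1 collects in nuclear speckles, which are stores of splicing factors, and NEAT1 is the scaffold of paraspeckles, nuclear bodies built from its long form. The 3' end of MALAT1 and that of the long form of NEAT1 are made by RNase P, which cuts ahead of a tRNA-like fold, whereas the short form of NEAT1 is cleaved and polyadenylated like an mRNA. Noncoding host genes carry small nucleolar RNAs (snoRNAs) in their introns. These guide the methylation or pseudouridylation of ribosomal and spliceosomal RNA, and many spliced host transcripts are removed by nonsense-mediated decay, which is coupled to translation.

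The ends made by RNase P are shown because they set MALAT1 and long NEAT1 apart from the transcripts that the targeted enzyme cuts. The stretches come from GENCODE 29 transcripts on GRCh38 and are written in DNA letters. Both are the last 110 bases ahead of the cut. Capitals mark the exact matches of at least 10 bases that the pair share, of 16 and 11 bases, the second at the very end of each. Below them stand mascRNA, the small tRNA-like product of MALAT1, with its T arm match, as in the box B of tRNA genes, in capitals, and the last 60 bases of a short NEAT1 transcript, with the polyadenylation signal AATAAA in capitals.
MALAT1, chr11:65506007-65506116, plus strand: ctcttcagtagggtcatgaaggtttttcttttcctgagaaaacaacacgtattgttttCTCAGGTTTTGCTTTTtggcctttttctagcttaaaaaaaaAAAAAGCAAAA
NEAT1 long form, chr11:65445431-65445540, plus strand: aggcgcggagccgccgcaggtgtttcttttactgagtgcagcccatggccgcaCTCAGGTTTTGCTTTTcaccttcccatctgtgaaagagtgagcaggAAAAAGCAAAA
mascRNA, chr11:65506117-65506174, plus strand: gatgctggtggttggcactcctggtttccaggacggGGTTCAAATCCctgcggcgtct
NEAT1 short form, chr11:65426454-65426513, plus strand: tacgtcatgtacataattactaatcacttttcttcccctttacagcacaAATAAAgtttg

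The deposited counts do not separate the forms of NEAT1, which share their 5' part.

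The host genes are shown by their starts and by what their introns carry. RefSeq places 34 snoRNAs inside the 8 hosts, 11 of them in GAS5, 9 in SNHG1, 4 in SNHG12, 3 each in SNHG16 and SNHG29, 2 in SNHG5 and 1 each in SNHG6 and SNHG8. By name, 28 are of the C/D box class and 5 of the H/ACA class. These 34 snoRNAs had no row under their names in the table of counts and were not analysed here. As examples of both classes, 2 snoRNAs of SNHG12 are given from GENCODE 29, SNORD99 with box D (CTGA) and SNORA61 with the ACA ahead of its last 3 bases in capitals.
SNORD99, chr1:28578749-28578822, minus strand: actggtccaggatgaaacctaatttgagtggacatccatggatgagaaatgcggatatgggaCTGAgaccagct
SNORA61, chr1:28579764-28579893, minus strand: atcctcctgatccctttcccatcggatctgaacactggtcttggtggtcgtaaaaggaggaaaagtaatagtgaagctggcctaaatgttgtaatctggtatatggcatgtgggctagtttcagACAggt

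The promoter table of RefSeq (GRCh38.p14) matched 8 of the 10 genes with 9 starts, leaving NEAT1 and SNHG6. The letters TATAA, searched on the strand of the gene and starting 40 to 20 bases ahead of the start, were present at 4 of these 9 starts, against 3.91% of the 35116 promoters of the same length. A C at the start followed by 4 bases that are each C or T, the form of a terminal oligopyrimidine start, was present in SNHG12 and SNHG5, against 4.07% of all promoters. The starts with TATAA are given from 50 bases ahead to the 20th base, with TATAA and, where present, the pyrimidine start in capitals. These matches are descriptions of the letters in that window. The pyrimidine start was read only at the annotated base, so such a start a base or more away was not counted.
SNHG12, chr1:28581854-28581923, minus strand: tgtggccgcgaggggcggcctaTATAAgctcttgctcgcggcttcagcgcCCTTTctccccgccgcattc
SNHG5, chr6:85678714-85678783, minus strand: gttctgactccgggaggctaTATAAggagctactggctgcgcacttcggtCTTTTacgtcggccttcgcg
SNHG8, chr4:118278712-118278781, plus strand: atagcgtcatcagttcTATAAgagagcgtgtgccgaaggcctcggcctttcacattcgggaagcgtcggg
MALAT1, chr11:65498995-65499064, plus strand: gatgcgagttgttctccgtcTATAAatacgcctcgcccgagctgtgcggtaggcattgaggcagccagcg

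The targeted gene had no lower mean under the si-CPSF3 label. CPSF3 was at 8.10 ± 3.15 CPM (counts scaled for depth and library composition) under the control label and 12.96 ± 3.54 under the si-CPSF3 label (SD, n = 3 each), with an edgeR adjusted p of 0.329 and a two-sided exact permutation p of 0.3, where 0.1 is the smallest that 3 against 3 libraries allow. Groups are therefore named by label only, and a gene called higher or lower is so under the si-CPSF3 label. Of the epithelial markers, KRT8 (mean 135 CPM under the control label and 142 under the si-CPSF3 label), KRT18 (97.3 and 74.8) and KRT7 (4.08 and 2.77) had counts in every library, and EPCAM and CDH1 were at 0. Of the mesenchymal markers, VIM (275 and 236 CPM), SPARC (16.7 and 3.57) and CDH2 (4.12 and 5.20) had counts in every library, and FN1 held 0 to 2. Of the urothelial markers, CD44 (135 and 83.5 CPM) and PPARG (5.61 and 5.76) had counts in every library, UPK2 was at 0, UPK1A held 0 to 3 and GATA3 0 to 7. Of the leukocyte markers, CD68 (25.3 and 14.1 CPM) and LYZ (15.7 and 17.1 CPM) had counts in every library, while PTPRC and CD3E had no row under those names. Endothelial PECAM1 held 0 to 1 and erythroid HBA1 0 to 2. Rows were also missing for the urothelial markers UPK3A, KRT20, KRT5 and KRT14, endothelial VWF and CDH5, and erythroid HBA2 and HBB. The part of these markers in the results was not tested. Overlapping genes cannot be told apart by strand, since no source used here gives the strand setting of the counting.

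In the length-scaled values as deposited, MALAT1 had the highest mean level of the 10 transcripts in these libraries and SNHG5 the lowest. On the deposited FPKM scale (fragments scaled for transcript length and depth), the mean level over the 6 libraries was 2323 for MALAT1, 1313 for SNHG8, 665 for SNHG29, 222 for SNHG6, 118 for NEAT1, 56.6 for SNHG12, 54.7 for GAS5, 28.9 for SNHG1, 28.8 for SNHG16 and 4.25 for SNHG5. The ranges of neighbours in this order overlapped except between SNHG8 and SNHG29, between SNHG29 and SNHG6, and between SNHG16 and SNHG5. The length behind each FPKM is not given. Counts per FPKM ran from 24.8 to 38.2 for MALAT1 and from 27.3 to 39.1 for NEAT1. Their loci span 8779 and 22743 bases, so the place of NEAT1 need not hold per base of its span. Whether the SMARTer mRNA-Seq libraries caught RNAs with ends made by RNase P as well as polyadenylated ones was not tested.

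**Figure D1:**
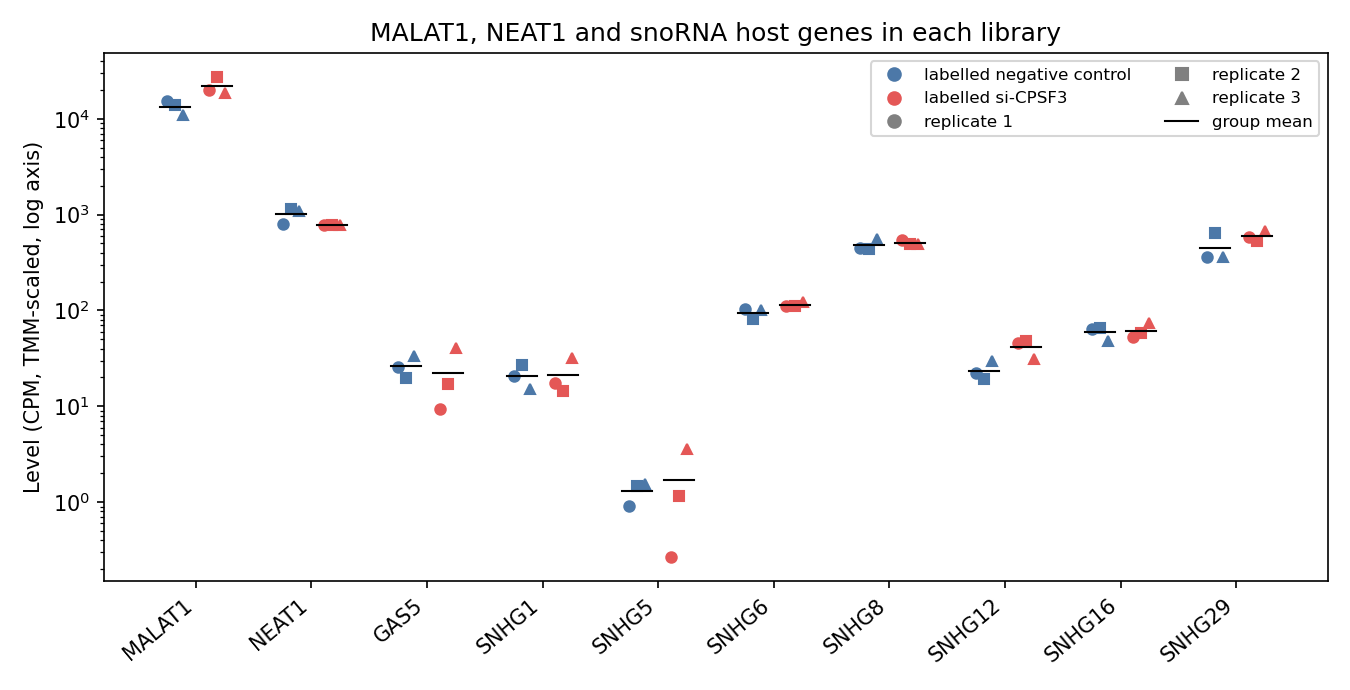
Level of each gene in each library (vertical axis, CPM scaled for library composition, log axis), with blue for the control label, red for the si-CPSF3 label, a marker shape for each replicate number and black lines for group means. MALAT1 and SNHG12 are higher in all 3 libraries labelled si-CPSF3 than in any control library, while GAS5 and SNHG5 spread widely among the libraries labelled si-CPSF3.

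Between the groups, none of the 9 genes with enough counts to be tested passed edgeR's quasi-likelihood test at an adjusted p under 0.05, where 2.23% of the 11069 genes tested did. At an unadjusted p under 0.05 there were 3, MALAT1, NEAT1 and SNHG12, against 15.4% of all genes. DESeq2 called 2, MALAT1 and SNHG12, both higher, where it called 92 higher and 147 lower over all genes tested. With limma-voom 0 were called, against 71 higher and 137 lower over all genes. The groups of libraries did not overlap for 4 of the 9, MALAT1, SNHG6 and SNHG12 higher and NEAT1 lower, against 21.2% of all genes tested (9.82% higher and 11.4% lower). The median log2 fold change of the 9 was 0.08, and that of all genes tested -0.01.

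MALAT1 held the most reads of the 10 genes, and its mean was higher under the si-CPSF3 label, short of the threshold. Its locus is chr11:65497738-65506516. Control replicates 1, 2 and 3 held 67379, 67139 and 41653 counts, and replicates 1, 2 and 3 under the si-CPSF3 label 73626, 116861 and 81080. Every library labelled si-CPSF3 lay above every control library, with replicate 2 the highest and control replicate 3 the lowest. MALAT1 took 1.39% ± 0.34 of all counts under the control label and 2.10% ± 0.50 under the si-CPSF3 label (SD, n = 3). In bulk libraries, more RNA per cell and more cells that carry it cannot be told apart. The normalised level was 13351 ± 2261 against 21817 ± 4793 CPM, a fold of 1.63 with a 95% interval of 1.19 to 2.25 (log2 fold change 0.71, SE 0.22, edgeR adjusted p = 0.106). With DESeq2 the log2 fold change was 0.72 (adjusted p = 0.00210), and over all 18 alternatives the adjusted p lay between 0.00210 and 0.564. In the deposited FPKM values, MALAT1 was at 1876, 1757 and 1431 under the control label, against 1961, 4720 and 2196. Replicate 2 labelled si-CPSF3 was 1.44 times the next highest of its group in counts and 2.15 times in FPKM.

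NEAT1 stood the other way. Its locus is chr11:65422798-65445540, upstream of MALAT1 on the same strand. The control libraries gave 3530, 5492 and 4239 counts, against 2936, 3355 and 3426 under the si-CPSF3 label. Libraries under the si-CPSF3 label were close to one another, at 788, 784 and 777 CPM, and control replicate 1, at 797 CPM, lay just above them while control replicates 2 and 3 were at 1145 and 1103. The means were 1015 ± 190 and 783 ± 5.76 CPM (SD, n = 3), a fold of 0.771 with a 95% interval of 0.604 to 0.985 (log2 fold change -0.37, SE 0.17, edgeR adjusted p = 0.292). In FPKM the groups overlapped, at 129, 180 and 109 against 83.0, 98.0 and 110. The number of MALAT1 counts per NEAT1 count was 19.1, 12.2 and 9.83 under the control label against 25.1, 34.8 and 23.7. Since MALAT1 lay higher and NEAT1 lower in every library under the si-CPSF3 label, this ratio adds no further evidence.

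The genes around both loci gave no call. Of 9 tested genes of the locus list, 0 passed edgeR's test and 2 had an unadjusted p under 0.05, and the median log2 fold change was -0.04. FRMD8, 9272 bases ahead of NEAT1 and encoding a partner of the iRhom proteins, was at 0.38 (edgeR adjusted p = 0.254), and ZNRD2, a zinc ribbon protein gene, at -0.67 (adjusted p = 0.0824). The ribosomal pseudogene FAUP4, which lies between NEAT1 and MALAT1, was at -0.03 (adjusted p = 0.984). TALAM1, the antisense transcript of MALAT1, held 0 to 6 counts per library and was not tested.

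SNHG12 had the smallest p of the 10 and missed the threshold narrowly. The gene lies at chr1:28578538-28582983 and hosts SNORD99, SNORA61, SNORA44 and SNORA16A. The control libraries gave 99, 92 and 113 counts, against 172, 208 and 138 under the si-CPSF3 label. All 3 of the latter were above all 3 controls, with replicate 3 (31.3 CPM) only just above control replicate 3 (29.4 CPM). The means were 23.6 ± 5.24 and 42.0 ± 9.37 CPM (SD, n = 3), a fold of 1.78 with a 95% interval of 1.31 to 2.43 (log2 fold change 0.83, SE 0.21, edgeR adjusted p = 0.0530). It passed in 8 of 19 alternatives, among them DESeq2 (adjusted p = 0.0417), and the adjusted p ranged from 0.00304 to 0.431. In FPKM the groups overlapped, at 35.4, 30.9 and 50.8 against 61.1, 112 and 49.7. TRNAU1AP on the opposite strand, which encodes a factor of selenocysteine incorporation, shares 8 exonic bases with SNHG12 and was at 7.21 and 10.1 CPM (log2 fold change 0.50, adjusted p = 0.442).

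**Figure D2:**
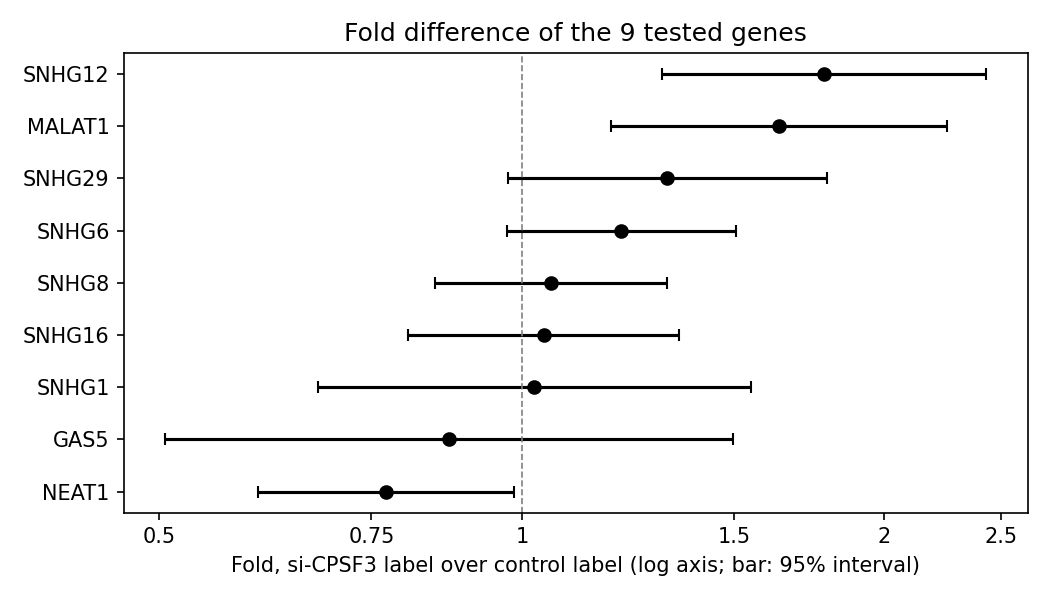
Fold difference of the 9 tested genes, si-CPSF3 label over control label (horizontal log axis), with points for the edgeR estimate and bars for the 95% interval. The intervals of SNHG12 (1.31 to 2.43) and MALAT1 (1.19 to 2.25) lie above 1 and that of NEAT1 (0.604 to 0.985) below it, before adjustment over all genes.

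SNHG6, SNHG29 and SNHG8 had the highest mean CPM of the host genes, and none passed the test. SNHG6, the host of SNORD87 on chromosome 8, held 457, 390 and 388 counts under the control label and 414, 481 and 536 under the si-CPSF3 label. On the normalised scale the groups did not overlap, at 95.2 ± 12.1 and 115 ± 5.68 CPM. The fold was 1.21 with an interval of 0.971 to 1.51 (edgeR adjusted p = 0.412). In FPKM the groups overlapped, at 278, 197 and 177 against 197, 238 and 249. SNHG29, at chr17:16438987-16470648 and host of SNORD49A, SNORD49B and SNORD65, gave 1598, 3056 and 1376 control counts, against 2181, 2284 and 2963. Control replicate 2 stood well above the other 2 controls and inside the range of the other group. The fold was 1.32 with an interval of 0.973 to 1.79 (edgeR adjusted p = 0.385). Without control replicate 2 the log2 fold change went from 0.40 to 0.73 and passed (adjusted p = 0.0441), and the adjusted p over all 19 alternatives ran from 0.0441 to 0.923. LRRC75A on the opposite strand shares 452 exonic bases with SNHG29 and was at 16.3 and 16.9 CPM.

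SNHG8, at chr4:118278762-118279823 and host of SNORA24, held 1964, 2127 and 2131 counts under the control label and 2003, 2106 and 2175 under the other. The groups overlapped, at 481 ± 64.1 and 508 ± 26.2 CPM (SD, n = 3), and the interval of the fold, 0.846 to 1.32, bounds the difference that these libraries allow (edgeR adjusted p = 0.862). SNHG16, at chr17:76557764-76565348 and host of 3 SNORD1 genes, held 281, 315 and 186 counts against 196, 248 and 329. Its groups overlapped in part, with a fold of 1.04 and an interval of 0.805 to 1.35 (adjusted p = 0.912).

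GAS5, SNHG1 and SNHG5 differed more among the libraries labelled si-CPSF3 than between groups. GAS5, at chr1:173863901-173869045, gave 113, 94 and 129 control counts, against 35, 74 and 180 under the si-CPSF3 label. Replicate 1 of that group was the lowest of all 6 and replicate 3 the highest, a 4.34-fold range in CPM against 1.71-fold among the controls. The fold between groups was 0.870 with an interval of 0.506 to 1.497 (edgeR adjusted p = 0.858), and its direction turned without replicate 1 of the libraries labelled si-CPSF3 (log2 fold change 0.18) and without control replicate 3 (0.03). ZBTB37, a zinc finger gene on the opposite strand whose span overlaps GAS5, shares 0 exonic bases with it and was at 14.2 and 15.5 CPM.

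SNHG1, at chr11:62851978-62855885, held 91, 128 and 58 counts against 66, 62 and 140, again with replicate 3 labelled si-CPSF3 the highest of all. The fold was 1.02 with an interval of 0.677 to 1.55 (edgeR adjusted p = 0.971), and its direction turned in 7 of 19 alternatives. SLC3A2, which starts 223 bases away and encodes the heavy chain of amino acid transporters, was at a log2 fold change of 0.18 (adjusted p = 0.643). SNHG5, at chr6:85677007-85678733, held 4, 7 and 6 counts under the control label and 1, 5 and 16 under the other, too few for the test. Fitted without the filter on low counts, its fold was 1.32 with an interval of 0.513 to 3.39 (edgeR adjusted p = 0.857). No difference was detected, and the parts of depth and of spread among libraries in this were not tested.

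The nearest tested neighbours of the hosts that are described here gave no call either. GAS5 had RABGAP1L (log2 fold change -1.06), SNHG12 had RCC1 (-0.86) and TAF12 (0.25), and SNHG1 had WDR74 (-0.59) on its other side. SNHG5 had SYNCRIP (-0.45) and ZNF292 (-0.09), SNHG6 had SGK3 (-0.30) and COPS5 (-0.07), and SNHG8 had NDST3 (-0.04) and METTL14 (-0.53). SNHG16 had RHBDF2 (-0.74) and MXRA7 (-0.24), and SNHG29 had TRPV2 (-0.00069) and LOC105371554 (0.03). The lowest edgeR adjusted p among them was 0.129, for RCC1. Only tested genes were searched, and some lay far away. RABGAP1L lay 290474 bases from GAS5, METTL14 405568 bases from SNHG8 and ZNF292 1476831 bases from SNHG5.

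Profiles over the 6 libraries were compared with those of 3084 other genes of at least 20 CPM by the root mean square difference of log2 CPM, each centred on its own mean. Nearest to MALAT1 were SLC38A7, an amino acid transporter gene (0.13), DMWD, a WD repeat protein gene (0.14), and CDK16, a cyclin-dependent kinase gene (0.15), where the median over the 3084 genes was 0.46. Of these, DMWD rose in the libraries labelled si-CPSF3 (log2 fold change 0.67, edgeR adjusted p = 0.0292). Nearest to NEAT1 were FBXO27, an F-box protein gene (0.06), C5orf24 (0.06) and LOC105376485 (0.08), against a median of 0.32. Nearest to GAS5 were the ribosomal protein genes RPL26 and RPL39 (0.29 each) and COX7B, of respiratory complex IV (0.30), against a median of 0.72. Like GAS5, these 3 were lowest in replicate 1 and highest in replicate 3 of the libraries labelled si-CPSF3, RPL26 with 316, 445 and 842 counts. All the genes named in this comparison were picked by their values in the same 6 libraries. Patterns and directions that they share with MALAT1, NEAT1 or GAS5 therefore follow from the choice and add no evidence.

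**Figure D3:**
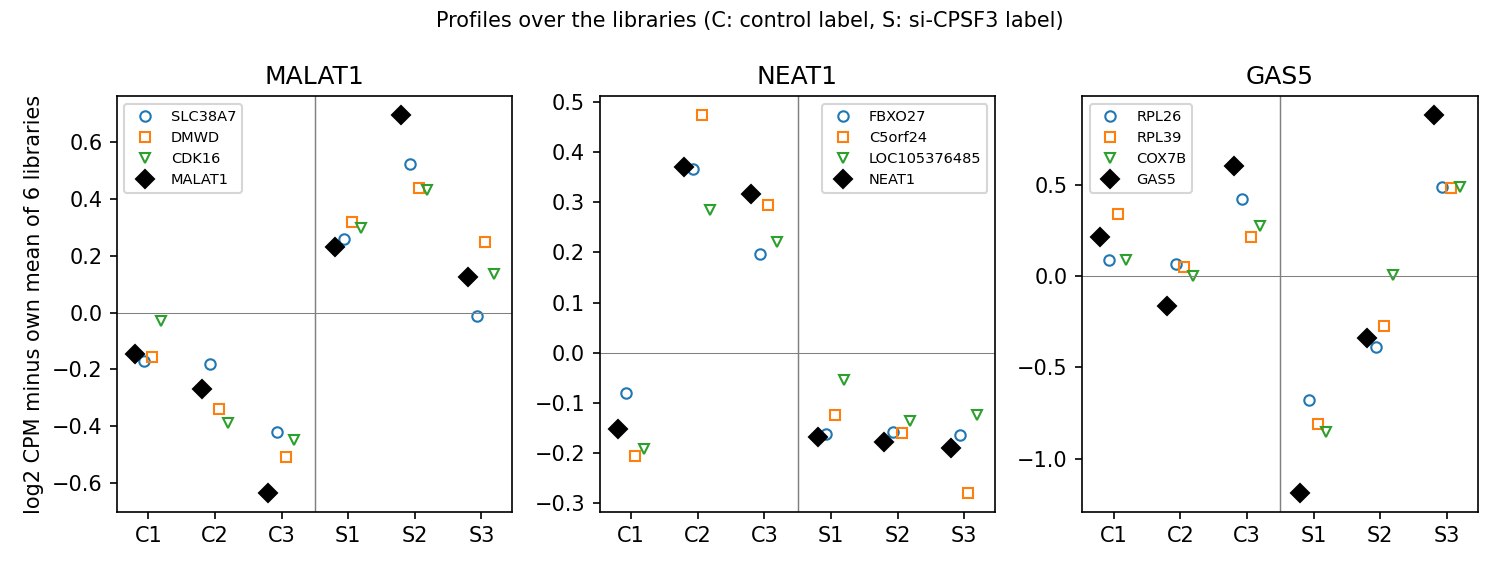
Log2 CPM of MALAT1, NEAT1 and GAS5 (black diamonds) and of the 3 genes with the nearest profile (open markers), each minus its own mean over the 6 libraries; C1 to C3 are control libraries and S1 to S3 those labelled si-CPSF3. GAS5 and its neighbours are lowest in S1 and highest in S3, while MALAT1 and its neighbours lie higher in S1 to S3 than in C1 to C3. The neighbours were picked by these same values, so the shared patterns follow from the choice.

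Among other noncoding snoRNA hosts, EPB41L4A-AS1 rose in the libraries labelled si-CPSF3, from 225 ± 28.9 to 348 ± 22.6 CPM (SD, n = 3; log2 fold change 0.63, SE 0.15, edgeR adjusted p = 0.0393). It was the only edgeR call among 15 tested of 25 listed, with 0 lower, where 2.23% of all genes were called. An unadjusted p under 0.05 was found for 6 of the 15, against 15.4% of all genes, and the median log2 fold change was 0.04. DESeq2 called 2, EPB41L4A-AS1 and SNHG32. SNHG32 gave 652, 728 and 656 control counts against 854, 959 and 934, without overlap (log2 fold change 0.50, adjusted p = 0.0769). SNHG15 (0.44) and SNHG17 (0.58) also lay higher without overlap, and SNHG4 (-0.64) and SNHG21 (-0.68) lower without overlap, none past the threshold. The groups thus did not overlap for 6 of the 15, against 21.2% of all genes. The call of EPB41L4A-AS1 was lost with library totals, with all rows as deposited, with the replicate number as a block and in FPKM. It was also lost without control replicate 1 or 2 or any single library labelled si-CPSF3.

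The table held 34 rows of snoRNAs and small Cajal body RNAs, with names starting SNORD, SNORA or SCARNA. These are other RNAs than the snoRNAs of the 8 hosts, which had no row. They held few reads, 894 over all 6 libraries, and 4 were tested. SCARNA12, a guide RNA of Cajal bodies, fell in the libraries labelled si-CPSF3, with 78, 121 and 62 counts against 28, 41 and 38 (log2 fold change -1.20, edgeR adjusted p = 0.0163). It lies inside PHB2, the prohibitin gene, whose own counts were 520, 497 and 444 against 339, 375 and 459 (log2 fold change -0.25, adjusted p = 0.448). SCARNA17 was at -0.94 (adjusted p = 0.158), SCARNA2 at -0.62 (0.606) and SNORD3A, the U3 RNA, at 0.20 (0.884). The part of PHB2 reads in the SCARNA12 counts was not tested.

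The 9 other lists, on proteins that bind or process these RNAs, protein-coding snoRNA hosts, locus genes and other long noncoding RNAs, gave 0 calls in edgeR's test among 137 different genes tested, against 2.23% of all genes. An unadjusted p under 0.05 was found for 25 of the 137, against 15.4% of all genes. DESeq2 called 2 of these genes lower and limma-voom called 1. Of 21 paraspeckle proteins the median log2 fold change was 0.00, with the RNA-binding protein gene HNRNPA1 at 0.20 (edgeR adjusted p = 0.546). Of 17 nuclear speckle genes the median was 0.08, with the splicing coactivator gene SRRM2 at 0.28 (0.636) and the splicing factor gene U2AF2 at -0.29 (0.369). The 11 genes of RNase P, RNase MRP and tRNase Z had a median of 0.03, with the subunit genes RPP21 at -0.22 and POP7 at 0.23.

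Factors that act on host transcripts and on snoRNAs were measured as well. The 18 nonsense-mediated decay genes had a median of -0.05, with UPF2 at 0.44 (edgeR adjusted p = 0.154) and UPF3A at 0.42 (0.184), both UPF complex genes. The 18 snoRNP genes had a median of -0.09, with the box C/D core gene NOP56 at -0.31 (0.311) and the H/ACA core gene NHP2 at -0.10 (0.815). The 17 exosome genes had a median of -0.18, with the nuclear poly(A)-binding protein gene PABPN1 at -0.40 (0.168) and the core subunit gene EXOSC4 at -0.19 (0.666). Of 16 protein-coding snoRNA hosts the median was -0.09, with the elongation factor gene EEF2 at 0.35 (0.676) and the chaperone gene HSPA8 at -0.62 (0.0517). HSPA8 was called by DESeq2 and limma-voom. Of 13 other long noncoding RNAs the median was 0.10, with CYTOR at 0.25 (0.517) and MIR4435-2HG at 0.48 (0.120).

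**Figure D4:**
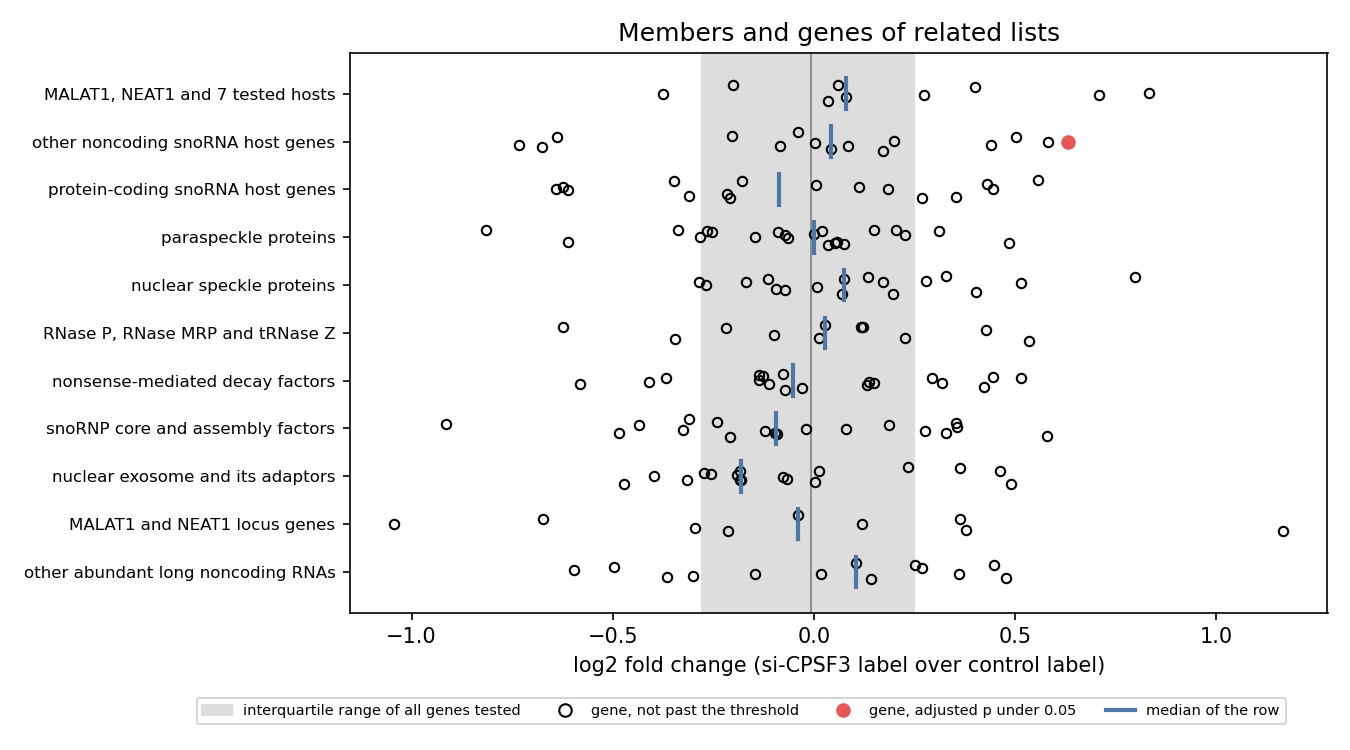
Log2 fold change of each tested gene (horizontal axis) in the 9 tested genes of the study set and in 10 related lists, with open points for genes short of the threshold, red points for adjusted p under 0.05, blue bars for the median of each row and a grey band for the interquartile range of all genes tested. EPB41L4A-AS1 is the only red point, and the medians lie between -0.18 and 0.10.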

How the data were processed

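The members and gene lists were chosen with earlier results of these data known. Total RNA from an RNeasy column kit went into SMARTer mRNA-Seq libraries, per the labels' protocols, and hg38 is the build that the submitters' processing notes name. No source used here names the aligner, counter, annotation or strand setting. The authors deposited raw counts per gene row and FPKM values of their own scaling, in 25479 rows; of rows that shared a name, the one with most counts on average was kept.

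The counts were tested with edgeR 4.0.16 in R 4.3.3 (glmQLFit and glmQLFTest, TMM factors, default expression filter, group as the only term), two-sided with Benjamini-Hochberg adjustment over 11069 genes at 0.05. SE is the absolute log2 fold change over the root of F, and 95% intervals use it. CPM are scaled by TMM. On counts simulated for 11069 genes, 58% of simulated 2-fold and 99% of 4-fold changes were found, in genes of at least 5 CPM. The simulation gave every gene the same dispersion, so these shares need not hold for the measured genes, whose spread differs. Replicates differed by more than sampling noise (chi-square per degree of freedom 6.54 to 16.3). Named were all members, in each list up to 4 calls of at least 1 CPM or the 2 most abundant genes, the nearest tested neighbours, the 3 nearest profiles and the 4 most abundant snoRNA rows; SNHG4, SNHG15, SNHG17, SNHG21 and SNHG32 were named after their values were seen. A few genes that this rule names are not reported here. Alternatives were other scalings and filters, DESeq2 1.42.0, limma-voom (limma 3.58.1), and limma on log2(FPKM + 1) and log2(FPKM + 0.1). Further alternatives were the replicate number as a block, other row choices and each library left out. A last fit left out 130 rows, which were MALAT1 and rows whose names matched ribosomal protein or mitochondrial patterns. Genes and snoRNAs were placed by RefSeq on GRCh38.p14 and exons by GENCODE 29.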

Additional observations from a re-analysis of the deposited data

How the results depend on the processing

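No member was called in the reported edgeR test. The number of members called higher was 1 with DESeq2 size factors, upper-quartile factors, the stricter filter or rows of one name summed. It was 2 with no filter or DESeq2, and 0 to 1 with a library left out. Over all genes, higher calls numbered 86 with DESeq2 size factors, 92 with upper-quartile factors and 87 with the stricter filter. They numbered 116 with summed rows, 232 with no filter and 92 with DESeq2, against 80 in the reported test. MALAT1 passed with no filter (log2 fold change 0.71, edgeR adjusted p = 0.0211) and with DESeq2 (0.72, adjusted p = 0.00210). SNHG12 passed with DESeq2 size factors (0.85), upper-quartile factors (0.87), no filter (0.84), the stricter filter (0.83), DESeq2 (0.84) and summed rows (0.83). With a library left out SNHG12 ran from 0.70 to 1.04, past the threshold without control replicate 3 or replicate 3 labelled si-CPSF3. SNHG29 ran from 0.26 to 0.73, past it without control replicate 2.

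The direction turned in both senses for genes near 0 difference. SNHG1 was at -0.059 with library totals, -0.016 with limma-voom, -0.0086 with the replicate block, -0.052 in log2(FPKM + 1) and -0.057 in log2(FPKM + 0.1), and ran from -0.37 to 0.27 with a library left out. SNHG8 was at -0.0084 with library totals, -0.00029 in log2(FPKM + 1) and -0.00029 in log2(FPKM + 0.1). SNHG16 was at -0.035 with library totals and ran from -0.10 to 0.18 with a library left out, and GAS5 from -0.95 to 0.18. NEAT1 and SNHG6 kept their direction and missed the threshold in all 19 alternatives. Library totals moved the median of all genes from -0.01 to -0.10.

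Over all genes, 80 were called higher and 167 lower. Higher calls numbered 36 with library totals, 232 with no filter, 11 in log2(FPKM + 1), 12 in log2(FPKM + 0.1) and 30 to 69 with a library left out. Lower calls numbered 315 with no filter, 30 in log2(FPKM + 1), 19 in log2(FPKM + 0.1) and 55 to 130 with a library left out. The replicate block gave 41 higher and 106 lower and called no member, and the call of EPB41L4A-AS1 was lost under it. Same-numbered libraries correlated at 0.05, 0.08 and -0.05, so no pairing by number was seen. Such values cannot show whether same-numbered libraries were prepared together. The RNase P list held 1 higher call with no filter and in 4 of the fits with a library left out. Those fits can test listed genes outside the 11 of the reported test, so the call need not be among these 11. Protein-coding hosts held 2 lower calls with library totals, DESeq2 or no filter, and 1 higher with no filter or without replicate 1 labelled si-CPSF3. They held 1 lower call with limma-voom, the stricter filter, summed rows or without the ribosomal protein, mitochondrial and MALAT1 rows. The locus list held 1 lower call with no filter, and the paraspeckle list 1 higher without control replicate 2. The causes of these changes were not tested. SNHG5 held 17 and 22 counts per group, too few for the reported test.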
